A study of Mus musculus with 12 samples.

Results

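The γδ T cell receptor constant genes were followed in 12 CT-26 tumors. They are Tcrg-C1, Tcrg-C2 and Tcrg-C4, which encode constant regions of the γ chain, and Trdc, which encodes the constant region of the δ chain. They were chosen by gene name, with earlier results of the swimming and control comparison known, and were found by their Ensembl identifiers. They are 4 of the 30630 genes listed for each tumor. CT-26 is a mouse colon carcinoma cell line, and the cells were injected with Matrigel under the skin of the right flank of male BALB/c mice that were 4 to 6 weeks old at purchase. Mice were divided into groups 3 days after the injection. Control mice carried the same tumors and did not swim, and swimming mice swam for 3 weeks, 6 days a week, in 2 daily sessions of up to 30 min. RNA-Seq was performed on 6 control and 6 swimming tumors out of 10 mice in each group. The model is 1 transplanted cell line, and a whole tumor also holds cells of the mouse.

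T cells recognise their targets through a receptor of 2 chains, α and β in most T cells and γ and δ in a smaller population. The variable end of each chain is put together from gene segments, and the constant region joins the chain to the membrane and to the CD3 chains, which carry the signal. γδ T cells are best known from skin, gut and other barrier tissues, and in tumors both interferon-γ producing and interleukin-17 producing γδ T cells have been described. RNA of γ and δ constant genes can also be made in other lymphocytes, so it does not by itself identify a γδ T cell. In bulk tumor RNA, fewer cells of a type and less RNA per cell cannot be told apart.

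The 3 γ constant genes lie on mouse chromosome 13 and Trdc on chromosome 14, here given in GRCm38 with the GENCODE M21 annotation. Tcrg-C1 (ENSMUSG00000076749) has 3 exons at chr13:19214103-19217024 on the plus strand. Tcrg-C2 (ENSMUSG00000076752) has 3 exons at chr13:19304649-19307551 on the minus strand. Tcrg-C4 (ENSMUSG00000076757) has 4 exons at chr13:19344558-19352756 on the plus strand. Trdc (ENSMUSG00000104876) has 4 exons at chr14:54142851-54148868 on the plus strand, and its last exon, of 3403 bases, is 3′ UTR. A further γ constant gene, Tcrg-C3, is annotated between Tcrg-C1 and Tcrg-C2 and was not analysed here.

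The γ constant genes are close copies, which matters for how reads are divided between them. The first exon, of 330 bases, is coding in all 3. The first exons of Tcrg-C1 and Tcrg-C2 differed at 9 bases (97.3% identity), with 71 bases as the longest identical run. Tcrg-C4 differed from Tcrg-C1 at 59 bases (82.1% identity) and from Tcrg-C2 at 61 bases (81.5% identity). Of the 865 windows of 50 bases in the Tcrg-C2 transcript, 157 (18.2%) also occurred in Tcrg-C1 and 115 (13.3%) in Tcrg-C3. None occurred in Tcrg-C4 or Trdc. Of the 815 windows of 100 bases in Tcrg-C2, 5 (0.6%) occurred in Tcrg-C1 and none in Tcrg-C3. Tcrg-C1 shared 154 of its 875 windows of 50 bases (17.6%) and 23 of its 825 windows of 100 bases (2.8%) with Tcrg-C3. How the authors' counting divided shared reads between Tcrg-C1, Tcrg-C2 and Tcrg-C3 is not given in the sources used here, and the values of Tcrg-C1 and Tcrg-C2 are uncertain to that extent. Trdc shared 207 exonic bases with Trdv5 and 96 with Gm43434, both on the other strand, and reads of these genes cannot be told apart if the counting did not use strand.

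All 4 genes were expressed at low levels. Values are FPKM (fragments per length of transcript and depth of sequencing), which are corrected for length. Levels of different genes can be set side by side only as far as the annotated length fits the RNA. For Trdc this length is 3865 exon bases, of which the last exon holds 3403, and for Tcrg-C2 it is 914. Whether reads covered the last exon of Trdc evenly was not tested. Mean FPKM over the 12 tumors was 0.580 for Tcrg-C2, 0.169 for Trdc, 0.128 for Tcrg-C1 and 0.0808 for Tcrg-C4. On the log2(FPKM + 1) scale, Tcrg-C2 was above Trdc by 0.42 (SE 0.08), in 11 of 12 tumors (two-sided exact sign-flip permutation test, p = 0.000977, adjusted p = 0.00293 over 3 pairs of neighbours). This difference pools both groups and so also holds the group difference of Tcrg-C2. In control tumors the means were 0.359 FPKM for Tcrg-C2 and 0.154 FPKM for Trdc, and in swimming tumors 0.801 and 0.185 FPKM. Trdc was above Tcrg-C1 in 8 of 12 tumors and the difference of 0.06 did not pass the exact test (adjusted p = 0.348). Tcrg-C1 was above Tcrg-C4 in 5 of 12 tumors and their difference of 0.06 did not pass it either (adjusted p = 0.348). The order of the lower 3 genes is thus not larger than their spread.

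**Figure D1:**
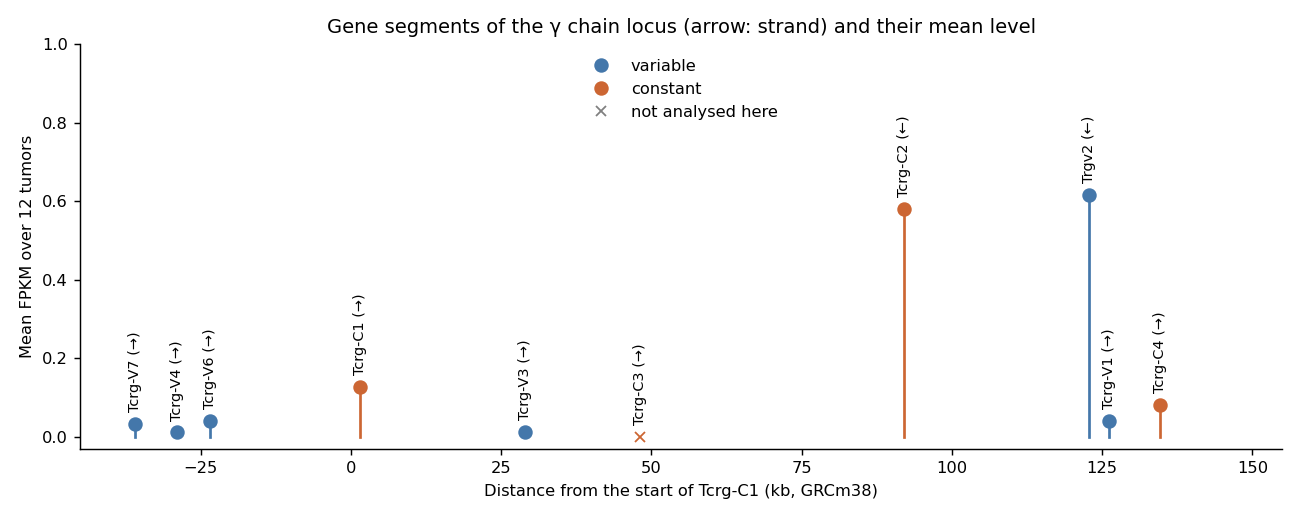
Mean FPKM over 12 tumors (vertical axis) of the constant and variable segments of the γ locus against distance from the start of Tcrg-C1 in kb (horizontal axis), with arrows for the strand and a cross for Tcrg-C3, which was not analysed here. Tcrg-C2 and Trgv2, both on the minus strand, have the highest means, 0.580 and 0.616 FPKM.

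The FPKM of genes with 1 transcript lay on steps, from which the reads behind a value could be read back. These are called read equivalents here, since a step may be a read or a read pair. The 12 tumors held 12364573 (control 2) to 17812110 (control 1) read equivalents. All 48 of 48 values of the 4 genes lay within 0.02 of a multiple of 0.25 steps. Tcrg-C2 rested on 1.5 to 7 read equivalents in control tumors and 8.75 to 15.75 in swimming tumors. Trdc rested on 4 to 18.5, Tcrg-C1 on 0 to 7 and Tcrg-C4 on 0 to 2. Summed over the 12 tumors, Trdc had 128.75 read equivalents and Tcrg-C2 104.25. Their order in FPKM thus rests on the greater annotated length of Trdc. The exact Poisson 95% interval of 1 read is 0.025 to 5.57, and that of 6 reads is 2.20 to 13.1. These intervals cover counting error only. Single values of Tcrg-C1 and Tcrg-C4 are thus hardly separated from each other at this depth.

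**Figure D2:**
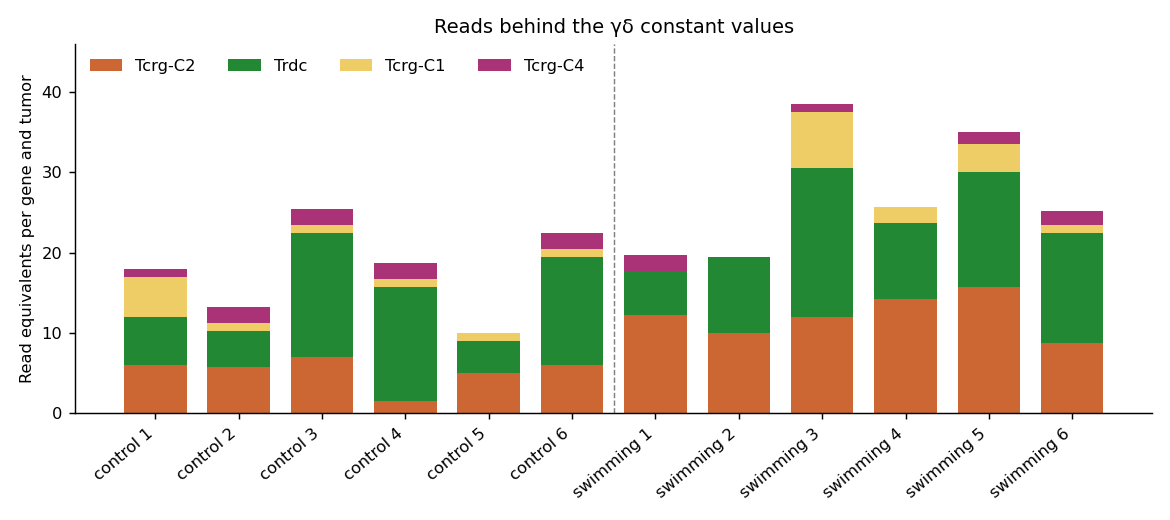
Read equivalents (vertical axis) behind each constant gene in each of the 12 tumors (horizontal axis), stacked by gene, with the dashed line between control and swimming tumors. The stack of 4 genes runs from 10 in control 5 to 38.5 in swimming 3.

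Tcrg-C2 had the highest mean FPKM of the 4 constant genes and was the one whose groups did not overlap. In control tumors 1 to 6 it was at 0.369, 0.509, 0.452, 0.105, 0.329 and 0.390 FPKM. In swimming tumors 1 to 6 it was at 0.774, 0.635, 0.789, 1.01, 1.01 and 0.597 FPKM. Control 4 was lowest, and every swimming tumor was above the highest control tumor. The means were 0.359 ± 0.140 in control and 0.801 ± 0.175 in swimming tumors (SD, n = 6 each), a ratio of 2.23, and the log2(FPKM + 1) difference was 0.41 (SE 0.09). The ratio ran from 1.96 without control 4 to 2.44 without control 2. Over all 19018 genes that reached 0.1 FPKM in at least 6 tumors, 15 (0.0789%) had every swimming tumor above every control tumor and 13 (0.0684%) every swimming tumor below. Tcrg-C2 was chosen with this contrast known, so its difference is described without a test.

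Trdc, which is needed for any γδ receptor, was at 0.0872, 0.0942, 0.237, 0.236, 0.0622 and 0.207 FPKM in control tumors 1 to 6. In swimming tumors 1 to 6 it was at 0.0821, 0.143, 0.288, 0.158, 0.215 and 0.222 FPKM. The groups overlapped over most of their range, and only swimming 3 was above all control tumors. The means were 0.154 ± 0.0812 and 0.185 ± 0.0719 (SD, n = 6 each), a ratio of 1.199 with a log2(FPKM + 1) difference of 0.04 (SE 0.06), which ran from 0.01 without swimming 3 to 0.06 without swimming 1.

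Tcrg-C1 was at 0.304, 0.0875, 0.0639, 0.0694, 0.0650 and 0.0642 FPKM in control tumors 1 to 6. In swimming tumors it was listed at 0 in numbers 1 and 2, and was at 0.455, 0.140, 0.221 and 0.0675 FPKM in numbers 3 to 6. A count of 0 allows 3 reads, that is 0.187 FPKM in swimming 1 and 0.188 FPKM in swimming 2, which is above most of the other values. The means were 0.109 ± 0.0959 and 0.147 ± 0.173 (SD, n = 6 each), a ratio of 1.35 that ran from 0.786 without swimming 3 to 2.10 without control 1. The log2 difference was 0.04 (SE 0.09) with a pseudocount of 1, 0.05 with 0.1 and -0.50 with 0.01, so the direction of Tcrg-C1 changed without swimming 3 and with the smallest pseudocount.

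Tcrg-C4 was at 0.0570, 0.164, 0.120 and 0.130 FPKM in control tumors 1 to 4, was listed at 0 in control 5 and was at 0.120 FPKM in control 6. In swimming tumors it was listed at 0 in numbers 2 and 4, and was at 0.117, 0.0610, 0.0889 and 0.111 FPKM in numbers 1, 3, 5 and 6. The means were 0.0986 ± 0.0595 and 0.0630 ± 0.0526 (SD, n = 6 each), a ratio of 0.639. All of these values were at or below 2 read equivalents, and the groups overlapped.

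**Figure D3:**
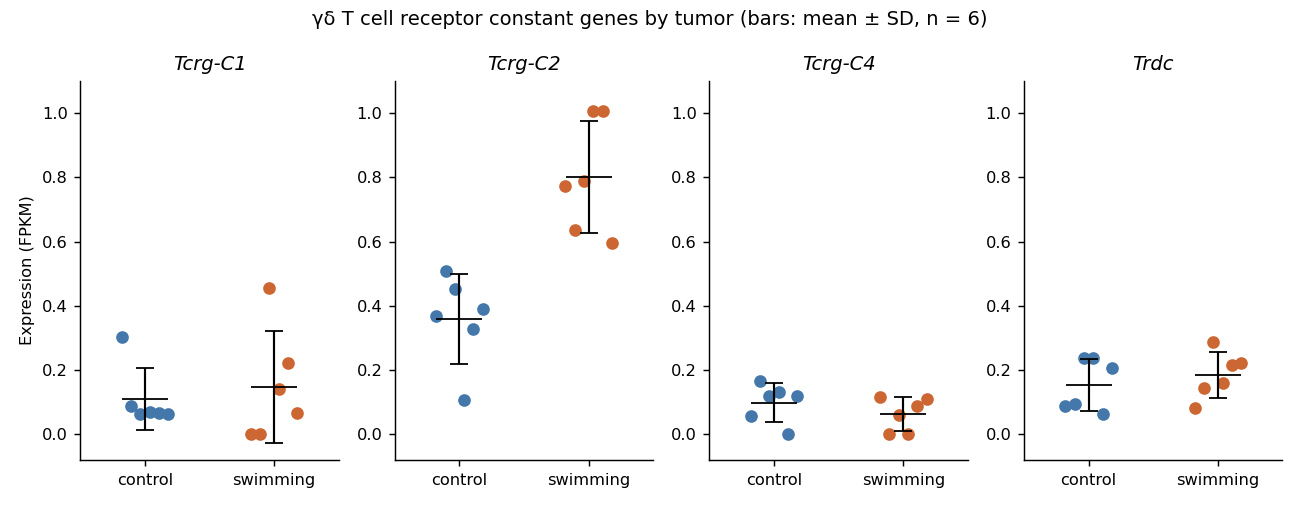
FPKM (vertical axis) of Tcrg-C1, Tcrg-C2, Tcrg-C4 and Trdc in 6 control and 6 swimming tumors, 1 point per tumor, with the mean and SD as black bars. For Tcrg-C2 the lowest swimming tumor (0.597) is above the highest control tumor (0.509), while the groups of the other 3 genes overlap.

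The 4 genes together were at 0.720 ± 0.177 FPKM in control and 1.196 ± 0.330 FPKM in swimming tumors (SD, n = 6 each), a ratio of 1.66. Tcrg-C2 alone was at 0.359 and 0.801 FPKM, so the difference of the sum is mostly that of Tcrg-C2. It is not a separate observation. Of the 6 swimming tumors, 5 were above all control tumors, and swimming 2 was not (0.777 FPKM). Tcrg-C2 made up 34.5% of the γ constant FPKM in control 4 and 100% in swimming 2, where Tcrg-C1 and Tcrg-C4 were listed at 0. In that tumor a count of 0 allows 0.188 FPKM of Tcrg-C1 and 0.177 FPKM of Tcrg-C4, beside 0.635 FPKM of Tcrg-C2, so the share of 100% is an upper value. Of the 4 genes, 3 passed the filter on low values, and Tcrg-C1, which reached 0.1 FPKM in 4 tumors, did not.

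Segments of the γ and δ chains gave few reads. Of 17 listed segments, 3 passed the filter, and none of the 3 reached an unadjusted p of 0.05 in limma, while 5.56% of all genes tested did. Trgv2, a variable segment on the strand of Tcrg-C2, was at 1.14, 0.988, 0.361, 0, 0.857 and 0.544 FPKM in control tumors 1 to 6. In swimming tumors 1 to 6 it was at 0.794, 0.738, 0.122, 0.525, 1.19 and 0.127 FPKM. Trgv2 did not follow the groups, with means of 0.649 ± 0.428 and 0.583 ± 0.414 (SD, n = 6 each). Trdv4, a δ variable segment, was listed at 0 in 3 control tumors and 1 swimming tumor, and its highest value was 0.581 FPKM in swimming 4. Trav21-dv12, a segment that can be used by the α or the δ chain, was highest in swimming 4 (1.88 FPKM) and swimming 5 (1.54 FPKM) and listed at 0 in 4 tumors. Its means were 0.193 ± 0.239 in control and 0.719 ± 0.791 FPKM in swimming tumors (SD, n = 6 each). The log2(FPKM + 1) difference was 0.43 (SE 0.25).

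The αβ T cell genes were far more abundant. The summed αβ constants Trac, Trbc1 and Trbc2 were at 15.4, 9.10, 10.8, 6.31, 3.95 and 8.23 FPKM in control tumors 1 to 6. In swimming tumors 1 to 6 they were at 10.2, 13.5, 11.7, 13.3, 24.4 and 21.99 FPKM. Swimming 5 and 6 were highest and control 5 lowest, and the groups overlapped. The γδ constants made up 4.34% (swimming 6) to 12.02% (swimming 3) of all receptor constant FPKM. This share was 8.0035% ± 1.75 in control and 7.56% ± 2.85 in swimming tumors (SD, n = 6 each).

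Across the 12 tumors, the γδ constants were compared with 4 measures on the log2(FPKM + 1) scale. The summed γδ constants had Pearson's r of 0.71 and Spearman's rho of 0.62 with the αβ constants, and 0.70 and 0.60 with the CD3 chains. They had 0.61 and 0.71 with the mean of the NK cell markers, and 0.56 and 0.47 with the mean of a γδ T cell programme. The programme is a list of genes described in γδ T cells but not particular to them. Without swimming 3 and 5, the tumors farthest from the median, r was 0.74, 0.72, 0.43 and 0.30 in the same order. Values over all tumors also hold the difference between the groups, for which the genes were chosen, so they are given as a description. The relations were tested with the mean of each group removed and tumors permuted within their own group, a test that was added after the data were seen. With the αβ constants r was then 0.48 (permutation p = 0.119, adjusted p = 0.238 over 4 relations) and with the CD3 chains 0.41 (permutation p = 0.184, adjusted p = 0.245). With the NK cell markers it was 0.60 (permutation p = 0.0580, adjusted p = 0.232) and with the programme 0.35 (permutation p = 0.357, adjusted p = 0.357). None of the 4 passed. The r with the αβ constants was 0.86 within the control and 0.18 within the swimming tumors, and with the CD3 chains 0.75 and 0.14. With the NK cell markers it was 0.62 and 0.58, and with the programme 0.61 and 0.25. Whether r differed between the groups was not tested.

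Taken singly, Trdc and Tcrg-C2 had unlike values, and these too were added after the data were seen. Trdc had r of 0.85 and rho of 0.87 with the NK cell markers over the 12 tumors. Its r was 0.81 within the control and 0.90 within the swimming tumors, and 0.84 with the group means removed (permutation p = 1.0e-05, the smallest that 100000 permutations can give, adjusted p = 4.0e-05). It was 0.80 without control 5 and swimming 1, the tumors farthest from the median, and 0.81 to 0.87 without any single tumor. With the programme, Trdc had r of 0.67, which was 0.66 with the group means removed (permutation p = 0.0154, adjusted p = 0.0308). It was 0.43 without the same 2 tumors, and the programme shares Gzma with the NK list. Adjustment was over the relations of a single gene, not over those of Trdc, Tcrg-C2 and the summed constants together. Whether the relation of Trdc with the programme passes that wider adjustment was not tested. With the αβ constants and the CD3 chains, Trdc had r of 0.23 and 0.10 with the group means removed (adjusted permutation p of 0.677 and 0.774). Tcrg-C2 had r of 0.28 with the NK cell markers over the 12 tumors and 0.06 with the group means removed (adjusted permutation p = 0.856). Its r with the αβ constants and the CD3 chains, 0.64 and 0.72 over the 12 tumors, was 0.27 and 0.35 with the group means removed (adjusted permutation p of 0.842 and 0.842). The difference between the relations of Trdc and of Tcrg-C2 was not tested.

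**Figure D4:**
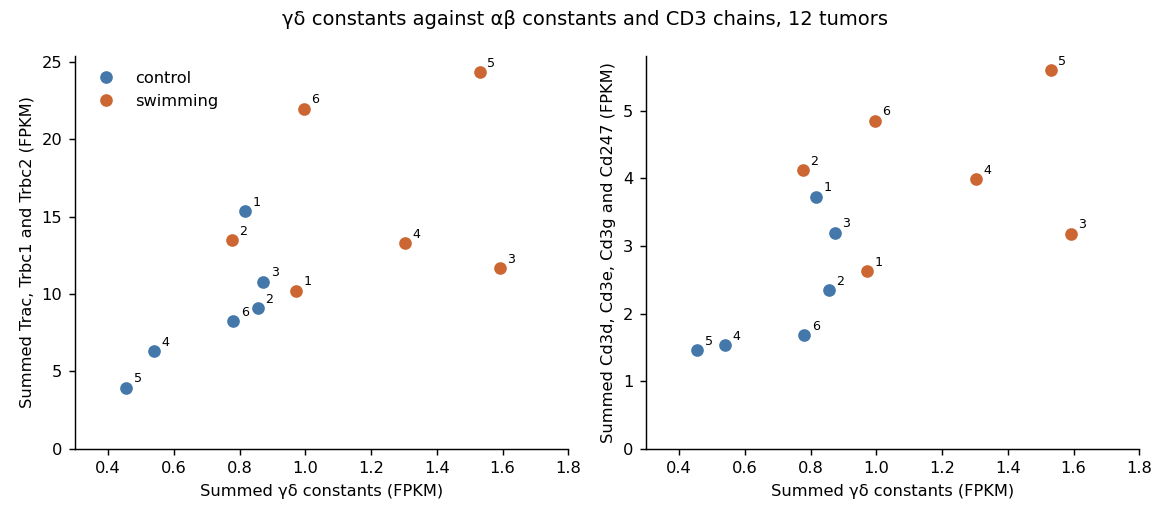
Summed αβ constants (left, FPKM) and summed CD3 chains (right, FPKM) against the summed γδ constants (horizontal axes, FPKM) in 6 control and 6 swimming tumors, numbered by tumor. The control tumors lie along a rising line (r of 0.86 and 0.75 on the log2 scale), while swimming 3 is highest in γδ constants without being highest in either of the others.

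Genes that work with T cell receptors were then counted in the limma fit over all genes, in which 591 of 19018 (3.11%) were higher and 467 (2.46%) lower in swimming tumors at an unadjusted p of 0.05. No gene passed an adjusted p of 0.05 in limma with Benjamini-Hochberg adjustment, where 1058 passed unadjusted. Without control 4 it was 3 genes, and without swimming 1 it was 2. None of the list genes below passed an adjusted p of 0.05. The median log2 difference of all genes tested was 0.0039.

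Of 16 genes of the CD3 chains and receptor signalling, 6 were higher at an unadjusted p of 0.05 and none lower, with a median log2(FPKM + 1) difference of 0.24. Among them were Cd3d and Cd3g, chains of the CD3 complex, the adaptors Lat and Lcp2, and the costimulatory receptor Icos. Cd3d was at 0.658 ± 0.354 FPKM in control and 1.31 ± 0.423 FPKM in swimming tumors (SD, n = 6 each), a log2 difference of 0.48 (SE 0.15). Cd3g was at 0.981 ± 0.335 and 1.68 ± 0.483 FPKM, a log2 difference of 0.43 (SE 0.14). Fyn, a kinase that many cell types express, was the most abundant gene of the list, at 6.997 ± 0.558 and 7.22 ± 0.732 FPKM. Without control 1 or without swimming 1 12 of the 16 passed, and without control 6 or without swimming 5 it was 3.

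Of 8 αβ T cell genes tested, 7 were higher at an unadjusted p of 0.05 and none lower, with a median log2 difference of 0.55. Trbc1, a β chain constant gene, was at 3.69 ± 1.62 FPKM in control and 7.07 ± 3.83 FPKM in swimming tumors (SD, n = 6 each). Trbc2, the other β constant gene, was at 3.76 ± 2.20 and 6.11 ± 1.47 FPKM. Trac, the α constant gene, was at 1.52 ± 0.797 and 2.66 ± 0.790 FPKM. Cd8a and Cd8b1, which form the CD8 co-receptor, and Cd5 and Cd6, which are surface receptors of T cells, were also among the 7, and Cd4 was not. Cd8a was at 1.47 ± 0.710 and 2.80 ± 1.19 FPKM. Without control 5 or without swimming 5, 4 of the 8 passed.

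Of 22 genes tested of the γδ T cell programme, which holds factors, receptors and products described in γδ T cells, 4 were higher and none lower at an unadjusted p of 0.05. Their median log2 difference was 0.09. The 4 were Cxcr6, a chemokine receptor, Cd27, a costimulatory receptor of interferon-γ producing γδ T cells, Ifng, which encodes interferon-γ, and Klrk1, which encodes the receptor NKG2D. All 4 are also expressed by αβ T cells or NK cells. Ifng was at 0.367 ± 0.173 FPKM in control and 1.05 ± 0.583 FPKM in swimming tumors (SD, n = 6 each). Cxcr6 was at 1.06 ± 0.637 and 2.12 ± 1.06 FPKM. Il23r, which encodes a receptor chain for interleukin-23 found on interleukin-17 producing cells, was at most 0.0242 FPKM in any tumor. The most abundant genes, Cd44, Sox4, Etv5 and Gzmb, did not pass, and Cd44 was at 50.04 ± 7.46 and 44.8 ± 3.58 FPKM. These most abundant genes were far above Trdc, whose mean was 0.169 FPKM, and which cells they came from was not tested. The median of the list is thus not a measure of γδ T cells alone. Without control 5 or without swimming 5, 2 of the 22 passed.

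Of 10 tested genes for candidate γδ T cell ligands and NKG2D ligands, 2 were higher and 1 lower at an unadjusted p of 0.05. H2-T22, a nonclassical class I molecule that some γδ receptors bind, was at 38.9 ± 3.29 FPKM in control and 46.8 ± 6.19 FPKM in swimming tumors (SD, n = 6 each). Ulbp1, a ligand of NKG2D, was at 18.6 ± 1.597 and 21.0 ± 1.29 FPKM. Procr, which encodes the endothelial protein C receptor, was lower, at 8.84 ± 1.81 and 6.77 ± 0.962 FPKM. H2-T10, a close relative of H2-T22, was at 8.32 ± 1.83 and 9.001 ± 2.01 FPKM and did not pass.

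Markers of other lymphocytes and of the tumor were set beside these genes. Of 11 NK cell markers, 2 (Klrb1b and Klrc1) were higher at an unadjusted p of 0.05, with a median log2 difference of 0.13. Without swimming 1 it was 4. Gzma, Prf1, Klrd1 and Xcl1 were the most abundant NK genes and did not pass, with Prf1 at 10.2 ± 4.15 FPKM in control and 9.01 ± 4.25 FPKM in swimming tumors (SD, n = 6 each). None of the 6 innate lymphoid cell markers tested passed, and their median was -0.16, with Il1rl1, Areg, Kit and Klrg1 the most abundant. The summed B cell markers were 6.03 FPKM in control 1 and 0.470 to 1.74 FPKM in the other tumors, and Cd79a, Cd79b and Pax5 were among the most abundant.

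The epidermal keratin Krt14 was listed at 0 in 9 of 12 tumors, and Krt1 and Krt15 in 11, while Krt10 was at 2.14 ± 0.332 and 2.04 ± 0.362 FPKM and Trp63 and Lor were below 0.2 FPKM in every tumor. Of the epithelial markers, Krt20 was the most abundant, at 154 ± 32.2 and 125 ± 19.1 FPKM, followed by Krt8, Krt18 and Lgals4. Krt8 was at 29.0 ± 49.5 and 6.11 ± 4.78 FPKM, and its place above Krt18 depends on its highest tumor (129 FPKM). The summed epithelial markers were 325 FPKM in control 4 and 122 to 213 FPKM in the other tumors. The defining markers Epcam, Cdx2 and Vil1 had means over the 12 tumors of 0.0422, 0.0934 and 0.0342 FPKM. The part of NK cells, αβ T cells and other cells in the γδ constant values was not tested.

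**Figure D5:**
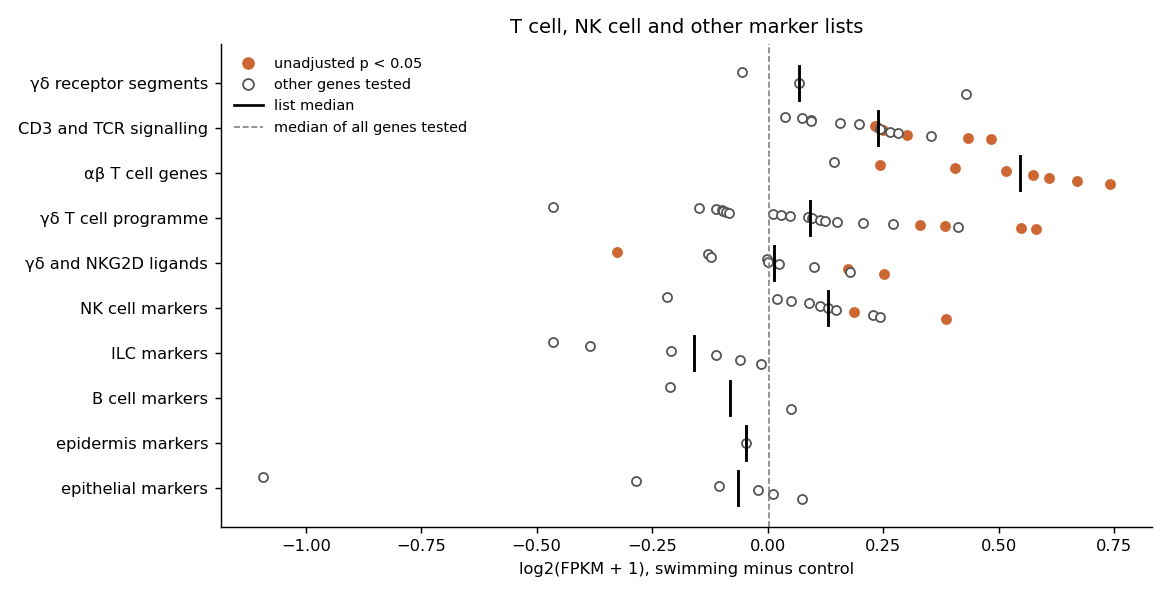
Difference in log2(FPKM + 1), swimming minus control (horizontal axis), of each tested gene in 10 lists (rows), with filled points at an unadjusted p under 0.05, black bars for list medians and a dashed line for the median of all genes tested (0.0039). The αβ T cell genes have a median of 0.55 and the CD3 and signalling genes 0.24, against 0.09 for the γδ T cell programme. The genes of the programme are not particular to γδ T cells.

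Among 12789 genes with a mean of at least 1 FPKM, the 5 whose log2 values followed the summed γδ constants most closely over the 12 tumors were named as a description. Their r is high in part because they were picked as the highest of so many values, and none was tested. Adar, which encodes an RNA-editing enzyme, had r of 0.93. Usp25, a deubiquitinase gene, and Pid1 had r of 0.91 each, an immunoglobulin κ variable segment (ENSMUSG00000093861) 0.90, and H2-Q2, a class I gene, 0.89. Within the swimming tumors r was 0.96 for Adar, 0.89 for Usp25 and 0.91 for the κ segment. Within the control tumors these were 0.78, 0.96 and 0.59. Adar was at 8.83 ± 0.763 FPKM in control and 10.1 ± 0.990 FPKM in swimming tumors (SD, n = 6 each).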

How the data were processed

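The authors sequenced rRNA-depleted total RNA of 12 CT-26 tumors. Reads were mapped with HISAT2 2.0.5 and quantified with StringTie 1.3.3, per the submitters' processing notes. The methods name hg38 and the labels hg38 and GRCm38, while the files hold mouse Ensembl identifiers. Values deposited by the authors are FPKM per gene. Use of strand in the counting is not given in the sources used here.

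Groups and numbers were taken from the labels, and each tumor was taken as 1 mouse. GENCODE M21 named 30542 of 30630 identifiers. limma 3.58.1 (R 4.3.3) was run on log2(FPKM + 1) with trend and no covariate, over the 19018 genes that reached 0.1 FPKM in 6 or more tumors, with Benjamini-Hochberg adjustment. A fold change on this scale understates the change of low genes. The fit was tested on simulated data with normal noise, in which changes were planted only in genes with a mean log2(FPKM + 1) above 1. That test does not cover genes as low as the 4 members. The difference of Tcrg-C1 came from a fit without the filter. Relations used 100000 permutations (scipy 1.17.1). The permutation first planned ran over all 12 tumors and also holds the group difference, so the tests in the text remove the group means.

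Read equivalents were FPKM multiplied by exon length and divided by the most frequent smallest value of each tumor, over 13662 genes with 1 transcript. Of values under 10.5 steps, 99.33% to 99.56% lay within 0.02 of a multiple of 0.25 steps (16% would by chance) and 37.9% to 40.31% were whole, so no count test was run.

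The members and gene lists were chosen with earlier results of these data known. Named genes were the members, other γ and δ constant genes, segments above 0 in at least 6 tumors, list genes at an unadjusted p below 0.05, the 4 most abundant of each list, defining markers at 0, and the 5 nearest genes. Some items that fall under these rules, and the sequences of the constant genes, are not reported here. Pseudocounts, filters, scalings, the trend, the replicate block and leaving out tumors were tried as alternatives.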

Additional observations from a re-analysis of the deposited data

Results flagged for a closer look

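Among 22 groups of 6 tumors examined, 2 held a tumor far from the others, where chance gives about 1 in 20 groups, or 1.1 here. Tcrg-C1 was at 0.304 FPKM in control 1, against 0.0875 FPKM in the next highest control tumor, a difference of 5 against 1 read equivalents. The mean log2(FPKM + 1) of the NK cell markers was 0.766 in control 5, below the other control tumors.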

How the results depend on the processing

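Of the alternative values, 411 kept their direction and side of the threshold or stayed within the spread, and 35 moved further. A further 27 no longer passed the threshold, 7 newly passed it and 1 relation changed sign. The difference of Tcrg-C1 also changed sign with a pseudocount of 0.01 (-0.50, counted among the 35). It did so without swimming 3 as well (-0.03, counted among the 411). With pseudocounts of 0.1 and 0.01 the log2 difference was 1.027 and 1.25 for Tcrg-C2, -0.29 and -0.78 for Tcrg-C4, 0.19 and 0.32 for Trdc and 0.65 and 0.72 for the sum, and it was 0.05 and -0.50 for Tcrg-C1. A pseudocount of 1 compresses differences between values well below 1 FPKM. With a filter at 1 FPKM, 391 genes were higher at an unadjusted p of 0.05, 1 of the γδ programme and 1 NK marker, from fewer genes tested. Same-numbered tumors did not deviate together (correlations of -0.32 to 0.006, mean -0.12) and 0 swimming tumors correlated best with their own number, so the numbers do not pair the tumors. The replicate block gave 451 genes higher and 441 lower at an unadjusted p of 0.05 and none at an adjusted p, with 3 CD3 and signalling genes, 3 αβ genes and 2 programme genes.

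Permuted over all 12 tumors regardless of group, as first planned, r of the summed constants had adjusted permutation p of 0.0230, 0.0230, 0.0468 and 0.0585 for the αβ constants, CD3 chains, NK markers and programme, and rho of 0.62, 0.60, 0.71 and 0.47 had 0.0565, 0.0565, 0.0520 and 0.126. Within the swimming tumors r was 0.18, 0.14 and 0.25 for the αβ constants, CD3 chains and programme. For NK markers r was 0.43 without the 2 farthest tumors and 0.59 after trimmed-mean scaling (adjusted permutation p = 0.0541), and for the programme it was 0.63 with a pseudocount of 0.1 (adjusted permutation p = 0.0256). In alternatives chosen after seeing the data, Tcrg-C2 alone gave r of 0.64, 0.72, 0.28 and 0.35 (adjusted permutation p of 0.0521, 0.0374, 0.380 and 0.361). Trdc alone gave r of 0.31, 0.22, 0.85 and 0.67 (adjusted permutation p of 0.441, 0.491, 0.00036 and 0.0371). These adjustments too were made for each gene singly. With the group means removed r was 0.48, 0.41, 0.60 and 0.35 for the sum, 0.27, 0.35, 0.0615 and -0.11 for Tcrg-C2 and 0.23, 0.10, 0.84 and 0.66 for Trdc. The cause was not tested.

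Without each tumor in turn, the number of genes at an unadjusted p of 0.05 was 0 to 1 segments, 3 to 12 CD3 and signalling genes, 4 to 8 αβ genes, 2 to 5 programme genes, 2 to 4 NK markers, 0 to 1 innate lymphoid markers, 0 to 1 B cell markers and 0 to 1 epithelial markers, and 0 to 3 genes passed an adjusted p. The log2 difference ran from -0.03 (without swimming 3) to 0.09 (without control 1) for Tcrg-C1 and from 0.35 (without control 4) to 0.44 for Tcrg-C2, from -0.07 to -0.03 for Tcrg-C4, from 0.01 to 0.06 for Trdc and from 0.29 to 0.40 for the sum. The r ran from 0.58 to 0.82 for the αβ constants, 0.61 to 0.80 for the CD3 chains, 0.44 to 0.76 for NK markers and 0.41 to 0.65 for the programme. By permutation over all tumors, the αβ and CD3 relations lost an adjusted p under 0.05 without control 5 or swimming 5, the NK relation without control 1, 2, 3 or 5 or swimming 3 or 5, and the programme gained it without swimming 1, 2, 4 or 6. Tcrg-C1 and Tcrg-C4 rest on at most 7 and 2 read equivalents a tumor, which limits the precision of their differences.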
